A study of Mus musculus with 6 samples.

Results

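The enzymes that write, maintain and remove DNA methylation were followed in Neuro2a cells, a mouse neuroblastoma line, with and without D-serine. The 9 genes were Dnmt1, Uhrf1, Uhrf2, Dnmt3a, Dnmt3b, Tet1, Tet2, Tet3 and Tdg, taken by their symbols from a count table of 24391 rows. All 9 were in the table, and 8 of them were among the 13366 genes with enough counts to be tested. Tdg, with at most 7 counts in any library, was not. The study asked what D-serine does to gene expression in these cells. Cells grown in D-MEM with fetal bovine serum were moved to a medium written as D-MEM(-SG), also with serum. The control group received vehicle (n = 3 libraries) and the other group received 5 mM D-serine (n = 3 libraries), and both were harvested after 18 h. Both groups therefore share the line and the medium change. Poly(A) RNA was sequenced as stranded paired-end libraries. The labels do not say whether the replicates were separate cultures, so p-values measure the spread between these 6 libraries, which may be technical.

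In mammalian cells, DNMT3A and DNMT3B place new methyl groups on the cytosine of CpG dinucleotides. UHRF1 recognises hemimethylated DNA behind the replication fork and brings DNMT1, which copies the pattern to the new strand. The TET enzymes oxidise methylcytosine with 2-oxoglutarate and iron as cofactors, and TDG cuts out the more oxidised bases, which base excision repair replaces with cytosine. DNMT3A and the TET enzymes are expressed in neurons as well as in dividing cells, whereas DNMT1 and UHRF1 are best known from S phase.

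Promoter sequences of all 9 genes were found in RefSeq for GRCm38.p6, as 14 windows of 300 bases, from 250 bases before to 50 bases after an annotated start. The windows held 2 to 57 CpG dinucleotides, against a median of 7 over 32851 mouse promoters of the same length. The first and the third Dnmt3a windows are printed because Dnmt3a was the member that passed the test of D-serine against control, and because they show how unlike its alternative starts are. CpG dinucleotides are in capitals. The first, chr12:3806730-3807029 (plus strand), holds 46 CpG dinucleotides, more than 98.4% of promoters. The third, chr12:3891494-3891793 (plus strand), holds 18, more than 70.3% of promoters. Methylation itself was not measured in these libraries.
Dnmt3a window 1: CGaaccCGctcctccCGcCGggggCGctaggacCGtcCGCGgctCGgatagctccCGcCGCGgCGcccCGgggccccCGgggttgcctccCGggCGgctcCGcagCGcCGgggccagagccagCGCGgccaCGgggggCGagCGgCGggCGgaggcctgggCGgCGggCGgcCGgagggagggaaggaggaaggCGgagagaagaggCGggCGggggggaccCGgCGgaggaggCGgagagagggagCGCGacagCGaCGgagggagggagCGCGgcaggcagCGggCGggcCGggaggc
Dnmt3a window 3: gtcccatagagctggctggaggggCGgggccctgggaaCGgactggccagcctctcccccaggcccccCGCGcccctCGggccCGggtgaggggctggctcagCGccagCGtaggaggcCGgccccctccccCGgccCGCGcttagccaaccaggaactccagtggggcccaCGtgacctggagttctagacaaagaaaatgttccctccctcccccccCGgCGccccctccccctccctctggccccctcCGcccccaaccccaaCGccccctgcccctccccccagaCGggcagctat

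The promoters of Dnmt1 and Uhrf1 are printed because these partners of maintenance methylation had nearly the same profile over the libraries (described with the pairs of members) and because E2F, the transcription factor family of S phase entry, has a known binding motif. The motif was searched on both strands in 4 spellings, TTTCCCGC, TTTCGCGC, TTTGGCGC and TTTGCCGC. Each match is in capitals. Matches were present in 2 of the 14 windows, the third window of Dnmt1, chr9:20952574-20952873 (minus strand), and the second of Uhrf1, chr17:56304063-56304362 (plus strand). Of all promoters of this length, 2.26% held a match. Each spelling contains a CpG, and both matching windows held 33 CpG dinucleotides, against a median of 7 over all promoters. The share among promoters of like CpG content was not computed. No window of Dnmt3a (r = 0.975 with Dnmt1) or Tet3 (r = 0.981 with Uhrf1) held a match, though their profiles were also close. In the Dnmt1 window the matches began at -219 and 34 relative to the start, which is base 1, and the first of them, GCGCGAAA, is the reverse complement of TTTCGCGC. In the Uhrf1 window the match began at -185. A match is a description of the letters and not evidence of binding.
Dnmt1 window 3: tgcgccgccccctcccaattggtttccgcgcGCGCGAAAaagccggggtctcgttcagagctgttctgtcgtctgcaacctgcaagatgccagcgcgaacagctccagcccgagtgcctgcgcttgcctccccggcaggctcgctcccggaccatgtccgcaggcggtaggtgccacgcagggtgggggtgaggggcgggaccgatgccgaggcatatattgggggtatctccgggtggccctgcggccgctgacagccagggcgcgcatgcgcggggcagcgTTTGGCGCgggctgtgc
Uhrf1 window 2: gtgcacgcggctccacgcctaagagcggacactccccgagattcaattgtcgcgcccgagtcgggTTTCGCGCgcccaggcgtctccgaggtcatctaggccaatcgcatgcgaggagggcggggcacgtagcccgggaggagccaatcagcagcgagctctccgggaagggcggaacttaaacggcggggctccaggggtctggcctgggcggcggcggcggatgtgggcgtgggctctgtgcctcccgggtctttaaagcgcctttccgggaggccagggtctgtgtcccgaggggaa

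Total counts per library lay between 32518483 and 40024265, and the control libraries and D-serine libraries overlapped in depth. D-serine replicate 1 stood apart: its chi-square per degree of freedom against the other D-serine libraries was 17.7 and 13.9, and its log2 CPM had a slope on gene length of -0.0717 per log2 base. The slope also went with the group: it was 0.0058 and -0.0040 in D-serine replicates 2 and 3, and 0.0152 to 0.0356 in the control libraries, so every D-serine library lay below every control library. The slopes bear on the enzymes because these genes are long, with a median exonic length of 7742 bases for the 8 tested, against 2834 bases for all tested genes. Of 18 neuroblastoma marker genes 15 passed the count filter, as did 13366 of all 24391 rows. The summed marker level was 1020 to 1086 RPKM (counts per kilobase of exon, scaled to library size) in control and 1099 to 1175 RPKM in D-serine libraries. Markers of fibroblasts summed to between 3.64 and 5.41 RPKM, with Col3a1, Lum and Thy1 at 0. Markers of glia summed to between 2.84 and 3.31 RPKM, with Aqp4 and Mag at 0, and those of blood and endothelium to between 1.77 and 2.58 RPKM, with Kdr at 0. In bulk RNA, fewer cells of a type and less RNA per cell cannot be told apart.

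Per length, Uhrf1 and Dnmt1, which act in maintenance, were the most abundant members. Uhrf1 led with a mean of 106 RPKM over the 6 libraries (range 97.0 to 109.9), above 95.2% of tested genes. Dnmt1, the maintenance methyltransferase, followed at 65.7 RPKM (58.2 to 68.5), and Uhrf2, the Uhrf1 paralogue that also binds modified cytosine, at 44.8 RPKM (43.7 to 45.8). All 3 stood in the upper part of the expressed genes, Uhrf2 above 85.9% of them.

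Among the de novo methyltransferases Dnmt3a was expressed at 32.6 RPKM (26.3 to 35.4) and Dnmt3b at 4.28 RPKM (3.84 to 4.62). Among the oxidising enzymes Tet3 had 25.4 RPKM (20.2 to 28.1), Tet2 6.14 RPKM (4.87 to 7.09) and Tet1 0.197 RPKM (0.152 to 0.245). Tet1, the family member known from pluripotent cells, exceeded only 4.51% of tested genes in level and had between 84 and 127 counts per library. Among the 8 tested members, neighbours in this order had ranges that did not overlap in 6 of 7 pairs. The exception was Dnmt3a and Tet3, whose ranges over the 6 libraries overlapped.

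**Figure D1:**
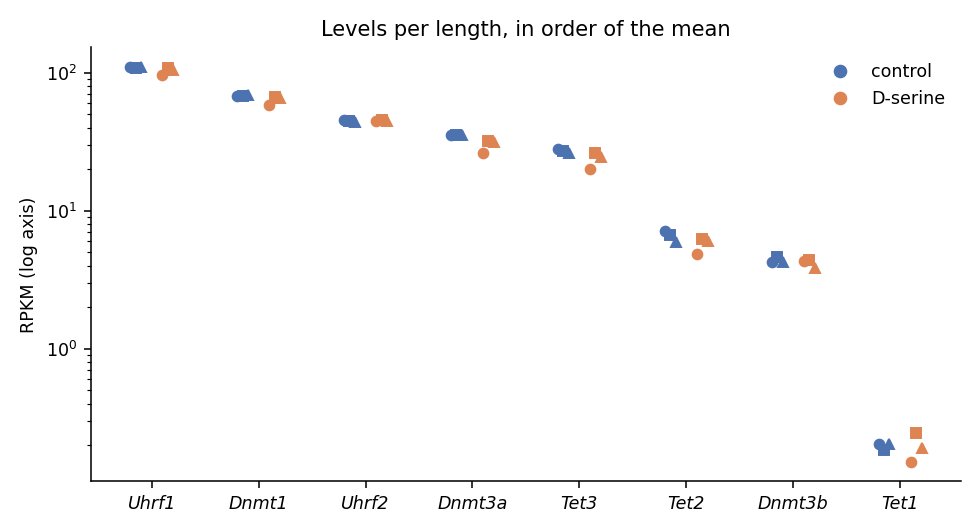
Levels of the 8 tested enzymes in RPKM on a log axis, 1 point per library, control in blue and D-serine in orange, with the replicate number given by the marker (circle 1, square 2, triangle 3). The order runs from Uhrf1 (mean 106 RPKM) to Tet1 (mean 0.197 RPKM), and the groups lie close together beside the distance between genes.

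Tdg, the glycosylase that cuts out oxidised methylcytosine in active demethylation, had 3, 1 and 1 counts in the control libraries and 7, 0 and 1 in the D-serine libraries. A count of 0 allows up to 3. These counts cannot be read as the level of its mRNA. In the deposited table, 2898 of its 3218 exonic bases (90.1%) are also assigned, on the same strand, to Gm9855, which had 0 counts in all 6 libraries, and a further 62 lie opposite Glt8d2, which leaves 258 bases to Tdg alone. Rows wholly covered by exons of other rows on the same strand numbered 423, and 423 of them were at 0 in all libraries. Of the rows that share no bases with another row, 27.6% of 21098 were at 0. In addition, 38.1% of the 100-base windows of the Tdg transcript occur in transcripts of other genes, 28.6% in the processed pseudogene Tdg-ps. RefSeq places Gm9855 elsewhere on chromosome 10. The remaining 8 members shared no exonic bases with another row, and windows shared with other transcripts were found for Uhrf1 (7.05%, with Gm5648) and Dnmt3b (5.71%, with Dnmt3c).

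With D-serine, Dnmt3a was the 1 tested member of 8 that fell, and no member rose. Across all tested genes 9.74% passed the same threshold, an adjusted p under 0.05 in edgeR's quasi-likelihood test with Benjamini-Hochberg adjustment over 13366 genes, with 4.90% lower and 4.84% higher. The share of members called (1 of 8) is near that background. Libraries of the groups did not overlap for 3 of 8 members, Dnmt3a, Dnmt1 and Uhrf1, each lower with D-serine, where 16.6% of all tested genes were lower without overlap and 32.9% did not overlap in either direction. Of the 8 fold changes 7 were negative, against 48.5% of all tested genes. Their median log2 fold change was -0.09, against 0.0053 for all genes. The members share the same 6 libraries and are mostly long genes. The fold change of each tested member with the length trend removed is given below.

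Dnmt3a lies at chr12:3806980-3914443 (plus strand) in the deposited coordinates, in 25 exon blocks with 9947 bases. Its expression was 349.5, 351.5 and 352.4 CPM (counts scaled to the adjusted library size) in the control libraries and 262.0, 318.1 and 314.9 CPM in the D-serine libraries. All 3 D-serine libraries lay below all 3 control libraries, and D-serine replicate 1 lay furthest below. The means were 351 ± 1.51 CPM and 298 ± 31.5 CPM (SD, n = 3 each), 15% lower with D-serine. In edgeR's quasi-likelihood test the log2 fold change was -0.23 (SE 0.062, 95% interval -0.37 to -0.10), with a Benjamini-Hochberg adjusted p of 0.0339. Without D-serine replicate 1 the decrease was smaller and more even, at a log2 fold change of -0.15 (SE 0.033, edgeR adjusted p = 0.00566).

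The decrease of Dnmt3a was also smaller once each library's trend on gene length was removed, at a log2 fold change of -0.10 (SE 0.033, edgeR adjusted p = 0.0413). With the trend removed and D-serine replicate 1 left out together, it was -0.088 (edgeR adjusted p = 0.0706), no longer past the threshold. The call was also lost on leaving out single libraries, while the decrease stayed about as large or larger. Omitting control replicate 1, 2 or 3 in turn gave log2 fold changes of -0.24, -0.23 and -0.23 (edgeR adjusted p = 0.10, 0.115 and 0.0903), and omitting D-serine replicate 3 gave -0.28 (0.0578). Calls over all tested genes dropped as well under these omissions, from 1302 to 125, 68, 453 and 291. The direction was negative in 17 of 17 alternatives, 11 of which kept the call. The alternatives reuse the same counts. With no overlap between the groups, omission of 1 library could hardly turn the sign, so the shared direction adds no independent evidence. Reads from Dnmt3aos, the antisense transcript within the gene, were near absent, with 3, 0 and 0 counts in control and 5, 0 and 0 in D-serine libraries.

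Dnmt3b, the methyltransferase of early development, had 18.4 to 20.0 CPM in control and 16.6 to 19.04 CPM in D-serine libraries. The groups overlapped, and the log2 fold change was -0.064 (SE 0.078, edgeR adjusted p = 0.634), with a 95% interval of -0.23 to 0.11. The Dnmt3a to Dnmt3b ratio per length was 8.07 in control and 7.14 in D-serine libraries (log2 3.01 ± 0.068 and 2.84 ± 0.22, SD, n = 3). These ratios overlapped between the groups, and their log2 difference of -0.18 was -0.060 without D-serine replicate 1, so a difference between the paralogues in their response was not resolved. Dnmt3a was the main de novo enzyme by transcript level in every library.

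Dnmt1 (chr9:20711650-20764332, minus strand, as deposited) had 430.4, 425.7 and 431.6 CPM in control and 366.7, 419.7 and 411.1 CPM in D-serine libraries. The groups did not overlap, with D-serine replicate 1 the lowest. The mean was 7.01% lower with D-serine (429 ± 3.09 and 399 ± 28.4 CPM, SD, n = 3). At a log2 fold change of -0.10 (SE 0.050, 95% interval -0.21 to 0.0030) it did not pass the threshold (edgeR adjusted p = 0.189). Without D-serine replicate 1 the value was -0.047 (edgeR adjusted p = 0.370).

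Uhrf1 (chr17:56442760-56462909, plus strand, as deposited), the reader that directs Dnmt1, had 401.2, 396.6 and 399.9 CPM in control and 354.2, 395.2 and 383.9 CPM in D-serine libraries. Again the D-serine libraries were lower without overlap, by a margin that D-serine replicate 2 almost closed. The log2 fold change was -0.080 (SE 0.046, edgeR adjusted p = 0.275), with a 95% interval of -0.18 to 0.019. Without D-serine replicate 1 it was -0.035 (edgeR adjusted p = 0.530).

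Uhrf2 differed from its paralogue in that its value in D-serine replicate 1 (157.5 CPM) lay within the control range. It had 154.7 to 162.0 CPM in control and 157.5 to 161.7 CPM in D-serine libraries, and its log2 fold change was 0.010 (SE 0.042, edgeR adjusted p = 0.907, 95% interval -0.080 to 0.10). The Uhrf1 to Uhrf2 ratio per length was 2.45 in control and 2.30 in D-serine libraries, lower without overlap (log2 1.29 ± 0.031 and 1.20 ± 0.067, SD, n = 3), as a description with no test. The log2 difference was -0.091, and -0.052 without D-serine replicate 1.

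Between maintenance and de novo enzymes, the ratio of Dnmt1 to the sum of Dnmt3a and Dnmt3b per length was 1.73, 1.69 and 1.73 in the control libraries and 1.90, 1.83 and 1.84 in the D-serine libraries. The D-serine ratios were all higher than the control ratios. On the log2 scale the means were 0.78 ± 0.019 and 0.89 ± 0.028 (SD, n = 3), a difference of 0.11. A ratio within a library does not depend on the scaling between libraries, but it still holds any trend on length, and Dnmt3a (9947 bases) is longer than Dnmt1 (6304 bases). The Dnmt1 to Uhrf1 ratio moved by -0.026 on the log2 scale, from 0.623 to 0.612, the smallest difference among the ratios without overlap, and by -0.012 without D-serine replicate 1.

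**Figure D2:**
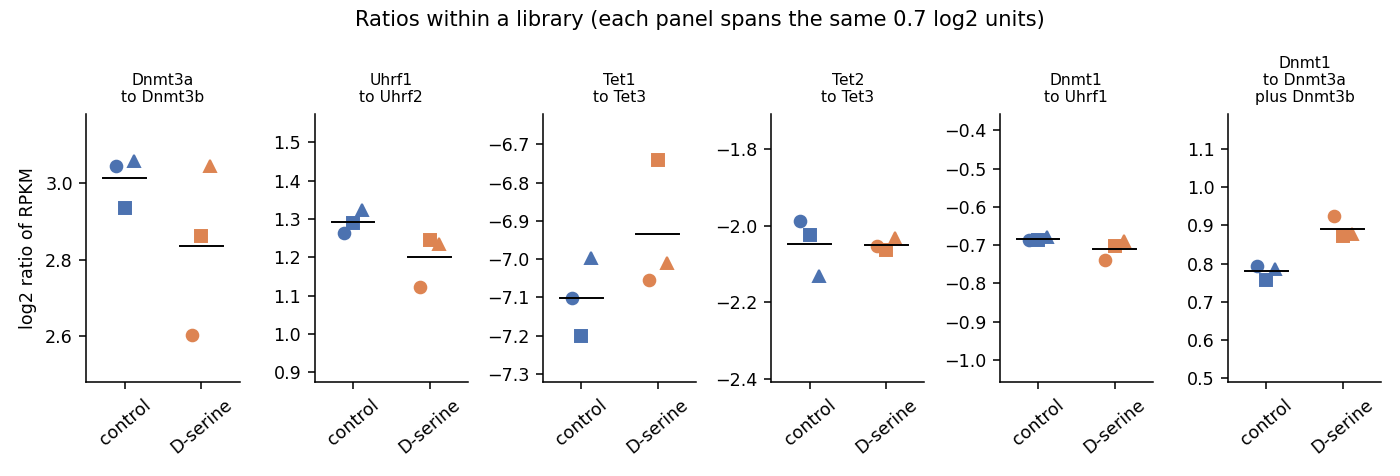
Log2 ratios of RPKM within each library, control in blue and D-serine in orange, 1 marker per replicate and a black line at each group mean, with the same span of log2 units in each panel. The ratio of Dnmt1 to Dnmt3a plus Dnmt3b is higher in all D-serine libraries (means 0.78 and 0.89), and the Tet2 to Tet3 ratio overlaps.

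The Tet enzymes had lower means with D-serine without passing the test. Tet3 (chr6:83312368-83391672, minus strand, as deposited), the most abundant of them here, had 306.5, 295.0 and 284.5 CPM in control and 220.3, 286.2 and 267.7 CPM in D-serine libraries. The groups overlapped through D-serine replicate 2, while D-serine replicate 1 was far below the rest. The log2 fold change was -0.19 (SE 0.075, 95% interval -0.36 to -0.034, edgeR adjusted p = 0.111). Tet3 would pass the threshold without D-serine replicate 2 (-0.28, edgeR adjusted p = 0.0263) and was at -0.093 without D-serine replicate 1 (edgeR adjusted p = 0.127).

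Tet2 (chr3:133126641-133207354, minus strand, as deposited) had 65.1, 61.0 and 54.7 CPM in control and 44.7, 57.6 and 55.1 CPM in D-serine libraries. Control replicate 3 lay below D-serine replicates 2 and 3, so the groups overlapped. The log2 fold change was -0.20 (SE 0.087, 95% interval -0.39 to -0.012, edgeR adjusted p = 0.154), and without D-serine replicate 1 it was -0.096 (edgeR adjusted p = 0.339). Tet2, Tet3 and Dnmt3a were the 3 members of 8 with an unadjusted p under 0.05, a mark that 28.2% of all tested genes reached. The Tet2 to Tet3 ratio per length was 0.242 in both groups, with a log2 difference of -0.0020.

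Tet1 had 2.88, 2.59 and 2.87 CPM in control and 2.14, 3.45 and 2.68 CPM in D-serine libraries. The D-serine libraries held both the lowest and the highest value, and the 95% interval of the log2 fold change ran from -0.44 to 0.42 around an estimate of -0.014 (edgeR adjusted p = 0.976). A change within that interval could not be resolved at the depth of Tet1. Its direction also turned positive under upper quartile scaling (0.014), library totals (0.015) and removal of the length trend (0.15).

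**Figure D3:**
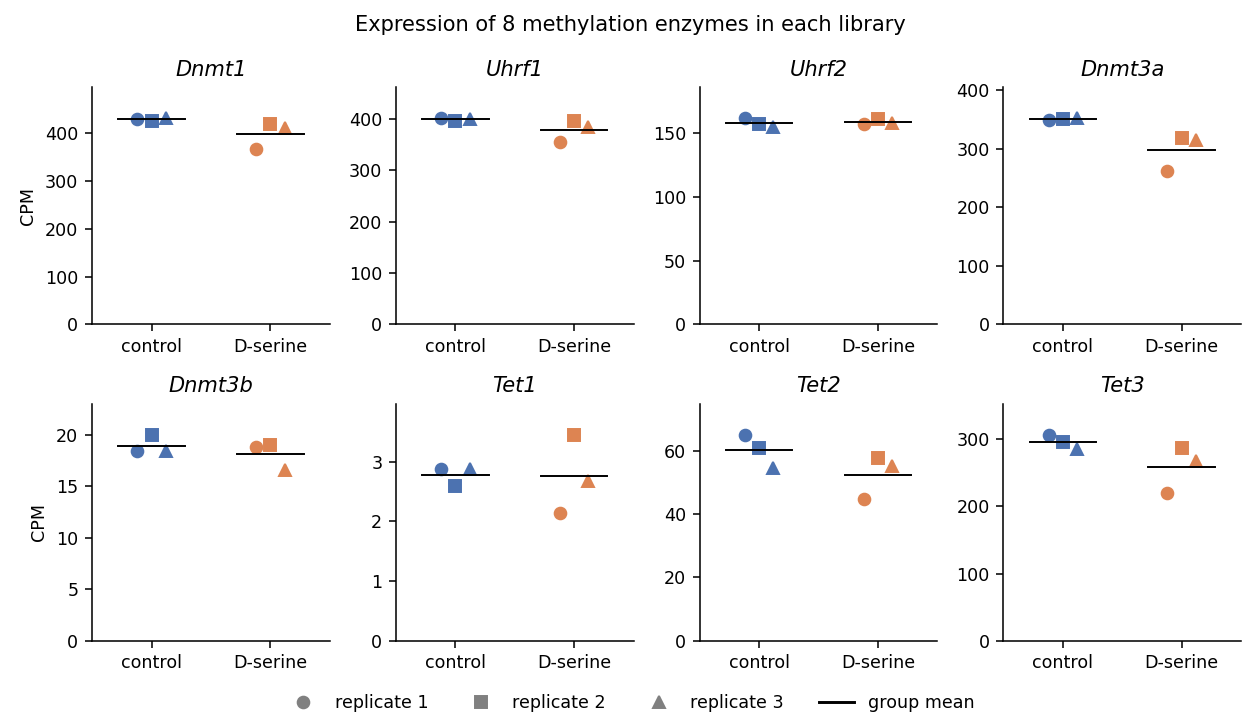
Expression in CPM of the 8 tested enzymes, 1 panel per gene with its own axis from 0, control in blue and D-serine in orange, markers for replicates 1 to 3 and a black line at the group mean. D-serine replicate 1 (circle) is the lowest library for Dnmt1, Uhrf1, Dnmt3a, Tet1, Tet2 and Tet3, and not for Uhrf2 or Dnmt3b.

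Removal of the length trend moved the longer members most. Tet3 went from -0.19 to -0.052 (edgeR adjusted p = 0.305), Tet2 from -0.20 to -0.074 (0.381) and Dnmt1 from -0.10 to -0.025 (0.619). Uhrf1, the second shortest of the tested members at 3651 bases, went from -0.080 to -0.071 (edgeR adjusted p = 0.169). Uhrf2 went from 0.010 to 0.016 (edgeR adjusted p = 0.792) and Dnmt3b from -0.064 to -0.033 (0.820). The lower values of the long enzymes thus shrank under an adjustment that uses only gene length. The source of the length trend was not tested.

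**Figure D4:**
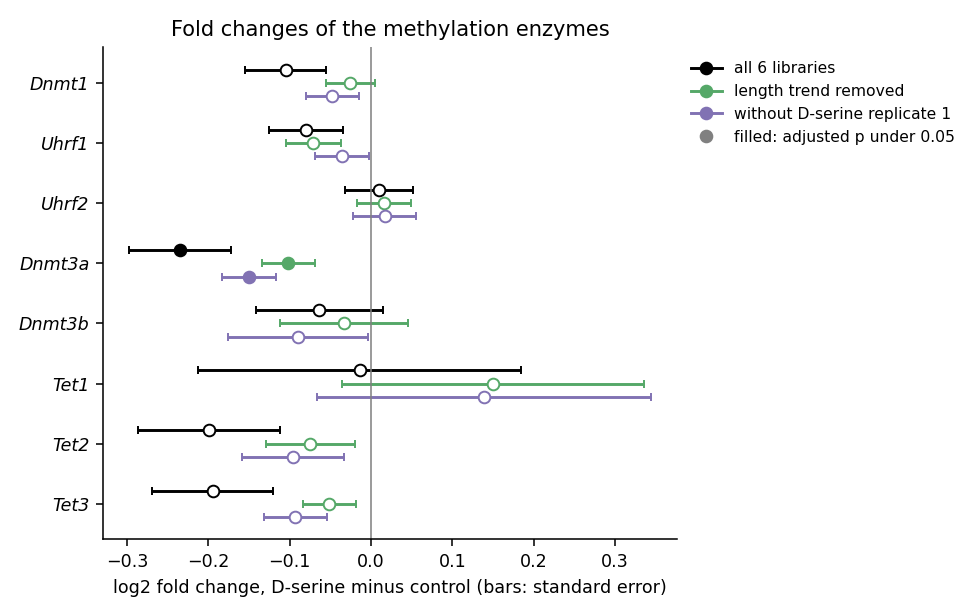
Log2 fold changes of the 8 tested enzymes (D-serine minus control) with standard errors, from all 6 libraries in black, with the length trend removed in green and without D-serine replicate 1 in purple, where filled points have an edgeR adjusted p under 0.05. Dnmt3a is the filled gene in all 3 (-0.23, -0.10 and -0.15), and Tet2 and Tet3 lie nearer to 0 in both adjusted fits.

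Over the 6 libraries, log2 CPM of Dnmt1 and Uhrf1 had a Pearson correlation of 0.995, that of Dnmt1 and Dnmt3a 0.975, that of Uhrf1 and Tet3 0.981 and that of Tet2 and Tet3 0.967. The same 6 libraries enter each value, and the low D-serine replicate 1 enters all of them. Uhrf2 and Dnmt3b did not share the profile: the correlation of Dnmt1 with Uhrf2 was 0.12 and with Dnmt3b 0.064. The genes most like Dnmt3a over these libraries were Xpr1, a phosphate exporter (r = 0.999), Ptch1, the hedgehog receptor (0.999), and Plce1, a phospholipase (0.997). Among those most like Dnmt1 were Neo1 (0.997) and Hipk2 (0.996), and among those most like Tet3 were Ccl17 (0.999) and Ago1 (0.998). With n = 6 the named genes were not alone: among the 13366 tested genes, 33 had an r above 0.99 with Dnmt3a, 29 with Dnmt1 and 52 with Tet3.

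Around the 9 enzymes, 5 lists of partners and suppliers of the pathway held 73 genes, of which 65 were tested. In edgeR's quasi-likelihood test 4 of them rose and 8 fell in the D-serine group. The median over the 65 was -0.02 on the log2 scale. That is 12 of 65, beside 9.74% of all tested genes. The split depended on the scaling, with 7 higher and 5 lower under upper quartile scaling. Without control replicate 1 or control replicate 2, 0 of the 65 passed, so each of these calls rests on those libraries.

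Partners of maintenance and de novo methylation (15 tested) included 3 genes that fell and 1 that rose, with a median of -0.08. Of all tested genes 4.90% fell and 4.84% rose. Usp7, the deubiquitinase that stabilises Dnmt1 and Uhrf1, fell from 314 ± 6.80 to 279.5 ± 3.13 CPM (SD, n = 3, log2 fold change -0.17, edgeR adjusted p = 0.0228). With the length trend removed, Usp7 (5427 bases) was at -0.11 (edgeR adjusted p = 0.0309). Pcna, the replication clamp that holds Dnmt1 at the fork, fell by 0.16 on the log2 scale (edgeR adjusted p = 0.0312), and Trim28, the corepressor that recruits silencing to retroelements, fell by 0.14 (0.0464). Under upper quartile scaling and library totals Trim28 did not pass (edgeR adjusted p = 0.119 and 0.098). Cdca7l, a relative of the Hells activator Cdca7, rose by 0.29 (edgeR adjusted p = 0.0230), with 24.6% of its exonic bases opposite Dnah11. Hells, the remodelling ATPase needed for normal methylation, was expressed at 98.8 RPKM and had a log2 fold change of -0.082 (edgeR adjusted p = 0.246). Dnmt3l, the cofactor of de novo methylation in germ cells, had at most 8 counts in a library and was not tested.

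Of 10 genes of the methyl-CpG-binding domain and methyl-CpG zinc finger families, 1 fell and 0 rose (median -0.02). The shares over all tested genes were 4.90% and 4.84%. Mbd6, which carries the domain but is not known to bind methylated DNA, fell from 104 ± 1.45 to 91.0 ± 4.25 CPM (SD, n = 3, log2 fold change -0.19, edgeR adjusted p = 0.0301), and it did not pass under upper quartile scaling (0.0506) or library totals (0.0519).

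Of 16 tested genes of base excision repair and active demethylation, 1 rose and 2 fell (median 0.06). The shares over all tested genes were 4.84% and 4.90%. Gadd45g, a stress gene linked to repair-based demethylation, rose from 80.4 ± 1.46 to 98.3 ± 9.13 CPM (SD, n = 3, log2 fold change 0.29, edgeR adjusted p = 0.0157). Xrcc1, the scaffold of single-strand break repair, fell by 0.21 on the log2 scale (edgeR adjusted p = 0.0142). Neil2, a glycosylase that can act beside Tdg on oxidised cytosine, fell by 0.79 on the log2 scale (edgeR adjusted p = 0.0222), from a low level of 4.34 ± 0.547 to 2.51 ± 0.544 CPM (SD, n = 3).

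The TET enzymes need 2-oxoglutarate, and of 12 tested genes for their partners and this cofactor, 2 rose and 0 fell (median 0.03). The shares over all tested genes were 4.84% and 4.90%. Idh1, the cytosolic isocitrate dehydrogenase that makes 2-oxoglutarate, rose from 20.7 ± 0.979 to 25.5 ± 1.10 CPM (SD, n = 3, log2 fold change 0.30, edgeR adjusted p = 0.0197). Idh3g, a subunit of the mitochondrial enzyme of the citric acid cycle, rose by 0.28 on the log2 scale (edgeR adjusted p = 0.0158). Ogt, the glycosyltransferase that binds TET proteins, had a log2 fold change of -0.165 (edgeR adjusted p = 0.139).

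S-adenosylmethionine is the methyl donor of the DNMT enzymes, and of 12 tested genes of its supply 0 rose and 2 fell (median -0.02). The shares over all tested genes were 4.84% and 4.90%. Ahcyl2, a relative of the hydrolase that clears S-adenosylhomocysteine, fell from 126 ± 5.01 to 104.5 ± 5.80 CPM (SD, n = 3, log2 fold change -0.27, edgeR adjusted p = 0.0115).

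Genes of S phase were read beside Dnmt1 and Uhrf1, which are expressed with replication. Of 19 tested, 0 rose and 4 fell, where 4.90% of all tested genes fell, with a median of -0.07 beside -0.10 for Dnmt1 and -0.080 for Uhrf1. The replicative helicase subunits Mcm4 and Mcm2 fell by 0.16 and 0.14 on the log2 scale (edgeR adjusted p = 0.0262 and 0.0400), and Rpa1, the single-strand binding protein, fell by 0.16 (0.0390). Pcna is in this list too. Under upper quartile scaling Pcna, Mcm2, Mcm4 and Rpa1 did not pass (edgeR adjusted p between 0.064 and 0.098). With the length trend removed all 4 passed, with edgeR adjusted p between 5.4e-05 (Pcna) and 0.0044 (Rpa1). In that fit Dnmt1 was at -0.025 (edgeR adjusted p = 0.619) and Uhrf1 at -0.071 (0.169). The part of cell cycle position in the Dnmt1 and Uhrf1 values was not tested.

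Readouts of methylation were limited to transcripts that methylation commonly controls. Of 18 germline and pluripotency genes that promoter methylation holds silent in somatic cells, 6 were expressed enough to be tested, 1 rose and 0 fell, where 4.84% of all tested genes rose. Taf7l, a testis transcription factor subunit, rose from 3.74 ± 0.173 to 5.09 ± 0.101 CPM (SD, n = 3, log2 fold change 0.44, edgeR adjusted p = 0.0485), and it was lost under 13 of its 17 alternatives, DESeq2 included. Of 13 tested imprinted genes 1 rose and 0 fell. Mest, expressed from the paternal allele, rose from 84.2 ± 3.50 to 103 ± 4.68 CPM (SD, n = 3, log2 fold change 0.29, edgeR adjusted p = 0.00965), and 32.9% of its exonic bases lie opposite Copg2. Neither list shows the methylation state of its genes.

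**Figure D5:**
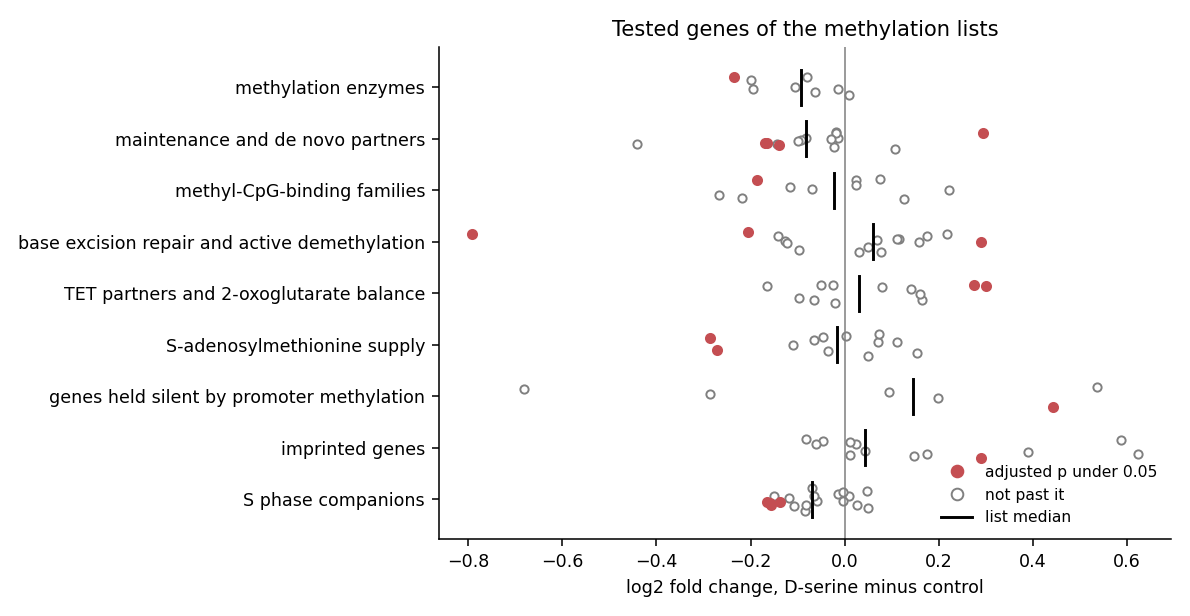
Log2 fold changes (D-serine minus control) of the tested methylation enzymes and of the tested genes of 8 lists, 1 point per gene, with genes at an edgeR adjusted p under 0.05 filled in red and a black line at each list's median. The medians lie between -0.09 (methylation enzymes) and 0.15 (genes held silent by promoter methylation), and called genes lie on both sides of 0.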

How the data were processed

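The submitters' processing notes name bcl2fastq, Trim Galore, HISAT2, featureCounts (Subread) and DESeq2, with GRCm38 and mm10 as builds. The authors deposited raw read counts per gene, with exon coordinates and exonic length, per the file headers. The handling of strand, of reads in overlapping genes and of multiply mapped reads is not given in the sources used here. Member starts in the table differ from those of RefSeq GRCm38 by 5421 to 537252 bases, so coordinates of genes are given as deposited, without a build. Promoter coordinates are of GRCm38.p6.

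Here the counts were tested in edgeR 4.0.16 (R 4.3.3): genes kept by filterByExpr, scaling by trimmed mean of M values (TMM), quasi-likelihood F test of D-serine against control with no covariate, two-sided, Benjamini-Hochberg adjustment over 13366 genes, threshold 0.05. The standard error is the log2 fold change divided by the square root of F, and 95% intervals use the test's degrees of freedom. CPM and RPKM use TMM-adjusted library sizes and the deposited lengths. In the table, 27 symbols had become dates and 2 symbols stood for several rows. The script was tested on simulated data. Alternatives used DESeq2 1.42.0, limma-voom 3.58.1, other scalings and filters, a replicate block, removal of a spline trend on length (5 degrees of freedom) and omission of each library. The members, gene lists and alternatives were chosen with earlier results of these data known. Named list genes are those past the threshold, at most the 4 with the smallest p per list. Hells, Dnmt3l, Ogt and Asz1 were named after their values were seen. The genes most like a member are taken from the 3 with the highest Pearson correlation of log2 CPM. Some genes that these rules pick are not reported here.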

Additional observations from a re-analysis of the deposited data

How the results depend on the processing

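The count of all genes past the threshold was 1302, and it was 298 with replicate number as a block, 2043 with the length trend removed and 68 to 1699 on leaving out 1 library. The member count of 1 became 2 with no filter on low counts (Dnmt3a and Tet3), 0 with the block, 0 with the length trend removed and D-serine replicate 1 left out, and 0 to 2 on leaving out 1 library. The 12 other pathway genes became 3 with the block, 20 with the length trend removed, 20 with both, 19 with the length trend removed and D-serine replicate 1 left out, and 0 to 16 on leaving out 1 library. The alternative that joins length trend and omission of D-serine replicate 1 was chosen after seeing the data. With the block Dnmt3a was at -0.24 (edgeR adjusted p = 0.0588). Deviations of libraries with the same number had correlations of -0.069, 0.020 and -0.019, and those with different numbers -0.076 to 0.088. With 3 libraries per group these values cannot settle whether the numbers pair cultures.

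Uhrf2 (0.010) ranged from -0.0038 to 0.029 on leaving out 1 library, and turned negative when control replicate 3 (-0.0038) or D-serine replicate 2 (-0.0016) was omitted. Tet1 turned to 0.014 (upper quartile), 0.015 (library totals), 0.15 (length trend removed), 0.15 (also with the block), 0.20 (length trend removed, without D-serine replicate 1) and lay between -0.20 and 0.14 on leaving out 1 library, with positive values in 4 of 6 cases. The cause was not tested. Upper quartile scaling and library totals moved the split of all calls from 647 higher and 655 lower to 914 and 412, and to 944 and 412. Among the tested members, depth limits Tet1 most (84 to 127 counts per library).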

Other observations

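Asz1, a germ cell gene whose promoter is methylated in most somatic tissues, was expressed at 72.9 RPKM (range 65.6 to 76.3 over the 6 libraries) in these neuroblastoma cells. The next genes of the same list lay far lower, Taf7l at 2.28 RPKM, and Mael, Tex101, Stk31 and Zfp42 had no count in any library. Asz1 was 123 ± 7.54 CPM in control and 131 ± 1.70 CPM in D-serine libraries (SD, n = 3), a log2 fold change of 0.094 that did not pass the threshold (edgeR adjusted p = 0.234).

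Low values at shared exons were not limited to Tdg. Amd1, which decarboxylates S-adenosylmethionine, and the imprinted gene Snrpn were at 0 in all libraries, with 99.7% of the exonic bases of Amd1 shared with Amd2 and 82.8% of those of Snrpn shared with Snurf on the same strand. Of rows wholly covered on the opposite strand, 52 of 52 were at 0 in all libraries. A value of 0 at such genes cannot be read as a lack of expression.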
